A study of Oryza sativa Indica Group with 8 samples.

Results

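OsDREB1B.1 (LOC4347618, also listed as DREB1B) and CBF3 (LOC4347620, also listed as DREB1A) are a pair of rice transcription factor genes of the DREB1 family. They were chosen by their measured levels in these data, which had been seen to be lower in roots under every nutrient deficiency of the study. All probe sets mapped to these genes were followed over the 4 treatment groups. They are 2 of the 17905 genes that a probe set of the array names, each with 1 probe set among the 57194 tested. The measurements were made in roots of Oryza sativa Indica Group seedlings on 8 Affymetrix arrays, 2 per group. The groups were a control (P+), phosphorus deficiency (P-), iron deficiency (Fe-) and deficiency of both (P-Fe-). All seedlings grew in hydroponic culture. The labels give 7 days of treatment in one place, and 10 days of growth and seedlings 5 days old in another. The labels give neither a cultivar nor the time of harvest. Whether both arrays of one treatment stem from independent cultures is not labelled, and the p-values cover the array-to-array spread alone, be it biological or technical.

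DREB1 proteins, called CBF in Arabidopsis, carry an AP2 DNA-binding domain and bind the dehydration-responsive element in promoters. In Arabidopsis they switch on genes of cold acclimation within hours of chilling, among them dehydrins and other late embryogenesis abundant (LEA) proteins that protect membranes and proteins from water loss. Rice DREB1A and DREB1B are induced by cold, and rice or Arabidopsis plants that overproduce them tolerate cold, drought and salt better. In Arabidopsis the family is also induced by touch and gated by the circadian clock. In the gene table used here, which follows a japonica assembly (ASM3414082v1), OsDREB1B.1, DREB1H (LOC4347619) and CBF3 are consecutive genes on chromosome 9. DREB1H had no probe set in the probe table, and cross-hybridisation between these related genes was not tested.

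On the arrays as deposited, OsDREB1B.1 had intensities of 781 and 778 in the control and 174 and 116 in P deficiency. The intensities were 134 and 92.9 in Fe deficiency and 174 and 125 in the combined deficiency. Both control arrays stood above every array of the deficient groups, and those 6 arrays overlapped one another. After quantile normalization across the arrays the control mean was 785 ± 1.24 (SD, n = 2 here and below). The means without P, without Fe and without both were 139 ± 41.7, 120 ± 24.0 and 137 ± 34.7. The control level was thus high and closely repeated, while the deficient arrays of one group differed from each other more than the deficient groups did.

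CBF3 had deposited intensities of 690 and 589 in the control and 158 and 186 in P deficiency. The intensities were 189 and 185 in Fe deficiency and 116 and 82.1 in the combined deficiency. The control arrays were again the highest, and the 2 arrays of the combined deficiency were the lowest of the 8. The quantile-normalized control mean was 643 ± 73.8. The means without P, without Fe and without both were 166 ± 20.2, 194 ± 0.586 and 88.3 ± 25.9. The mean was thus highest in the control, then under Fe deficiency, P deficiency and their combination.

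**Figure D1:**
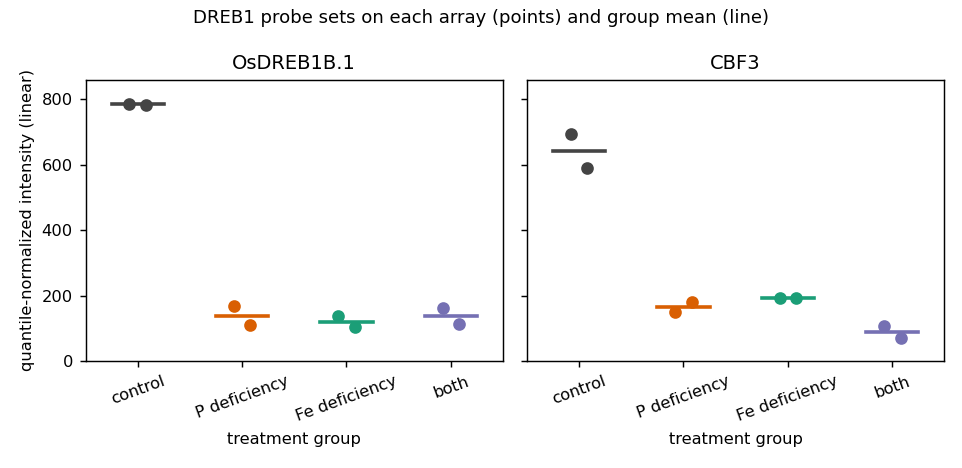
Quantile-normalized intensity (linear scale) of the OsDREB1B.1 and CBF3 probe sets on each of the 8 arrays (points) with the group mean (line), by treatment group. The control means of 785 and 643 stand above all deficient arrays, and CBF3 is lowest in the combined deficiency, at 88.3.

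In terms of rank on its own array, OsDREB1B.1 stood at percentile 80.6 of all probe sets on both control arrays and between percentiles 58.6 and 64.1 on the deficient arrays. CBF3 stood at percentiles 79.2 and 77.4 in the control and between 53.2 and 65.6 on the deficient arrays. Both probe sets thus stayed above the median of every array. No detection calls came with the values, so whether the lower levels exceed background was not tested.

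Changes are given as differences of log2(intensity + 16), with standard errors from a limma fit over all 8 arrays. Because the genes were chosen for their lower level under each deficiency, the differences from the control are a description and carry no test. OsDREB1B.1 was lower than the control by a difference of -2.40 without P (5.27-fold), -2.57 without Fe (5.92-fold) and -2.41 without both (5.30-fold), each with SE 0.270. CBF3 differed by -1.86 without P (3.63-fold lower), -1.65 without Fe (3.13-fold lower) and -2.68 without both (6.40-fold lower), each with SE 0.218. In these 3 comparisons 26.4%, 20.2% and 25.9% of all probe sets had both deficient arrays below both control arrays. The share of all probe sets that passed the limma test as lower was 4.05%, 0.0192% and 1.78%. All 3 comparisons share the same 2 control arrays. Without control replicate 1 the 3 differences were -2.38, -2.54 and -2.38 for OsDREB1B.1 and -1.73, -1.52 and -2.54 for CBF3. Without control replicate 2 they were -2.39, -2.56 and -2.40 for OsDREB1B.1 and -1.96, -1.75 and -2.78 for CBF3.

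Among the differences of all 57194 probe sets, OsDREB1B.1 held places 48, 2 and 25 from the lowest for the P, Fe and combined deficiency. CBF3 held places 212, 88 and 12. With each probe set scored by the smallest of its 3 falls, 2 probe sets lay ahead of OsDREB1B.1, whose smallest fall was -2.40. They belong to LOC4347266 (-2.79) and LOC4337638 (-2.56), which have no name in the tables used here and were picked out after their values were seen. CBF3 had a smallest fall of -1.65, with 13 probe sets ahead of it. These ranks describe how the genes were found and test nothing.

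The fall in the combined deficiency was smaller than the sum of the single falls. For OsDREB1B.1 the P and Fe differences sum to -4.96, and the combined difference was -2.41, which lies above the sum by 2.56. For CBF3 the sum was -3.51 and the combined difference -2.68, above the sum by 0.83. These values use the same control arrays as the choice of the genes and were not tested.

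Comparisons among the deficient groups leave out the control arrays and were tested in the same fit, with p-values adjusted over all probe sets. OsDREB1B.1 was nearly level across them. The combined deficiency differed from P deficiency by -0.01 (95% interval -0.67 to 0.66, limma adjusted p = 0.996) and from Fe deficiency by 0.16 (-0.51 to 0.83, adjusted p = 0.823). P deficiency differed from Fe deficiency by 0.17 (-0.50 to 0.84, adjusted p = 0.794). Its arrays overlapped in all 3 comparisons, and intervals this wide do not show equal levels.

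CBF3 was lower in the combined deficiency than in either single deficiency. Against P deficiency the difference was -0.82 (95% interval -1.36 to -0.28, SE 0.218, limma adjusted p = 0.314), a 1.76-fold lower level. Against Fe deficiency it was -1.03 (-1.57 to -0.49, limma adjusted p = 0.0793), a 2.04-fold lower level. Both arrays of the combined deficiency lay below both arrays of each single deficiency, as they did for 21.5% and 27% of all probe sets. Neither difference passed the adjusted threshold of 0.05. Over the alternatives the adjusted p against Fe deficiency ranged from 0.0194 to 0.28, and that against P deficiency from 0.127 to 0.56. Between P and Fe deficiency CBF3 differed by -0.21 (-0.75 to 0.33, adjusted p = 0.657), with both P-deficient arrays below both Fe-deficient arrays, as for 27.4% of all probe sets. Of the 2 genes, 0 passed in the combined against P deficiency, 0 in the combined against Fe deficiency and 0 in P against Fe deficiency. At an unadjusted limma p under 0.05, CBF3 alone did so, in the first 2 of these, where 10.2% and 18% of all probe sets did (22.2% in the third). The share of all probe sets called in either direction in these comparisons was 0.0315%, 2.26% and 7.88%. Whether OsDREB1B.1 and CBF3 respond differently to the combined deficiency was not tested.

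**Figure D2:**
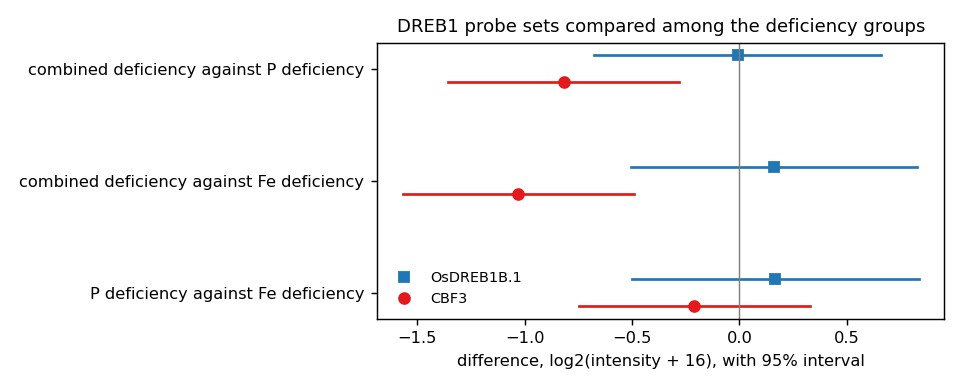
Differences of log2(intensity + 16) among the deficient groups for OsDREB1B.1 (squares) and CBF3 (circles) with 95% intervals from the limma fit. The OsDREB1B.1 intervals all span 0, while those of CBF3 in the combined deficiency lie below 0, at -0.82 and -1.03.

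Of 7 further DREB1 genes matched by name, 3 had a probe set, each with group means of 80.0 or less. They were OsDREB1E (LOC4336721), DREB1G (LOC4330306) and CBF1 (LOC4339974, also listed as DREB1C). OsDREB1E had normalized intensities of 62.1 and 97.8 in the control and 37.9 and 92.8 without P. It had 73.7 and 48.4 without Fe and 52.1 and 33.7 without both. Its groups overlapped in the single deficiencies. In the combined one both arrays lay below the control, as for 25.9% of all probe sets. DREB1G had 88.1 and 35.6 in the control and group means of 57.1, 56.0 and 39.5 in P, Fe and combined deficiency, which lay within the spread of the control. The CBF1 probe set with the highest mean had 50.8 and 10.8 in the control and means of 53.2, 40.7 and 13.5. Of its other 2 probe sets, one had 26.9 and 14.0 in the control, with means of 2.60, 8.42 and 1.11 in P, Fe and combined deficiency. It differed by -0.95 in P deficiency (limma adjusted p = 0.118) and by -1.07 in the combined deficiency (adjusted p = 0.119), both with an unadjusted p under 0.05. The last probe set had means of 28.0 or less in every group.

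Of these 3 genes 0 passed in any of the 3 deficiencies by limma, and 0 had an unadjusted p under 0.05 on the brightest probe set of each gene. Over all probe sets 8.28%, 0.124% and 3.85% passed in the P, Fe and combined deficiency, and 23.4%, 8.33% and 19.8% had an unadjusted p under 0.05. The median differences of the 3 genes were -0.02, -0.06 and -0.52, against -0.02, -0.01 and -0.02 over all probe sets. The other AP2/ERF genes that could be named, including OsDREB2A and OsDREB2B, which belong to the DREB2 branch linked to drought and heat, had 0 of 5 passing in each deficiency. At an unadjusted p under 0.05 there were 1, 0 and 0. The brightest of them, OsEREBP1 (LOC4330935), differed by -0.15, -0.16 and -0.17.

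Genes with names linked to DREB1 targets or to the cold response were read next. The list was drawn by gene name, with LEA and dehydrin genes taken by family. Whether each gene is a DREB1 target was not tested. DREB1 proteins act by switching targets on, but the list also holds regulators such as OsMYB2, OsMyb4, OsMYBS3 and OsMYB3R-2. Its counts are therefore not a measure of DREB1 activity. Of 15 measured genes 2 rose and 1 fell in P deficiency, 0 passed in Fe deficiency (8 at an unadjusted limma p under 0.05, as had 8.33% of all probe sets), and 3 rose and 0 fell in the combined deficiency. Their median differences were 0.10, 0.05 and 0.19. The share passing was 20% in P deficiency, where all probe sets gave 8.28%, and 20% in the combined deficiency, where all probe sets gave 3.85%. The genes that rose encode LEA proteins and dehydrins, which abscisic acid and drought also induce in rice.

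RAB21 (LOC4350454), a dehydrin gene, had normalized intensities of 272 and 294 in the control and 1059 and 1122 without P. It had 701 and 569 without Fe and 1676 and 1771 without both. All deficient arrays lay above both control arrays, and the share of all probe sets that do so is not given here. Separation of this kind was common in the other direction. Both deficient arrays lay below both control arrays in 26.4%, 20.2% and 25.9% of all probe sets (P, Fe and combined deficiency). RAB21 rose by 1.89 in P deficiency (SE 0.158, limma adjusted p = 0.00743) and by 2.54 in the combined deficiency (adjusted p = 0.00782). It differed by 1.12 in Fe deficiency (adjusted p = 0.101). Its second probe set gave 1.87, 1.501 and 2.58 in P, Fe and combined deficiency, the second with an adjusted p of 0.0625. OsLEA19 (LOC4339480, also listed as LEA3-1), an LEA protein gene, had 208 and 303 in the control, 867 and 840 without P, 384 and 489 without Fe, and 1274 and 838 without both. In OsLEA19 too every deficient array lay above the control arrays, and again the share of all probe sets that do so is not given. It rose by 1.70 in P deficiency (adjusted p = 0.0248) and by 1.97 in the combined deficiency (adjusted p = 0.0293). RAB16B (LOC4350453), another dehydrin gene, had 103 and 72.6 in the control and 282 and 242 in the combined deficiency, a rise of 1.43 (adjusted p = 0.0424).

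The one that fell, OsMYB2 (LOC4332651), encodes a MYB transcription factor of stress responses. It had 1166 and 1326 in the control and 591 and 704 in P deficiency, a change of -0.93 (limma adjusted p = 0.0251). OsDhn1 (LOC4330265, also listed as LIP9), a dehydrin gene reported as a DREB1A target in rice, stood at 5873 ± 786 in the control and at 6296 ± 485, 6053 ± 249 and 6843 ± 697 in P, Fe and combined deficiency. The limma adjusted p of its differences from the control was 0.782, 0.977 and 0.536. These values are from its brightest probe set. A dimmer one had a mean of 128 ± 64.4 in the control and lower means of 52.7, 66.1 and 52.9 (limma adjusted p = 0.461 in P deficiency). Another had 61.9 in the control and 50.5, 72.3 and 53.4. The lectin gene salT (LOC4326471), induced by salt, had probe sets that differed in their calls in Fe deficiency. The brighter one gave 1.07 (adjusted p = 0.0943) and the dimmer one 1.73 (adjusted p = 0.0287). OsDhn1 and salT were named after their values were seen.

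With 1 array left out, fewer of these 15 genes passed in P and in combined deficiency. The share of all probe sets passing in such fits was not counted, so this loss cannot be assigned to particular genes. The differences in such fits were 1.82 to 1.94 in P and 2.47 to 2.59 in combined deficiency for RAB21. For OsLEA19 they were 1.44 to 1.95 and 1.68 to 2.28. They were -1.06 to -0.81 for OsMYB2 in P deficiency and 1.21 to 1.63 for RAB16B in the combined deficiency.

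**Figure D3:**
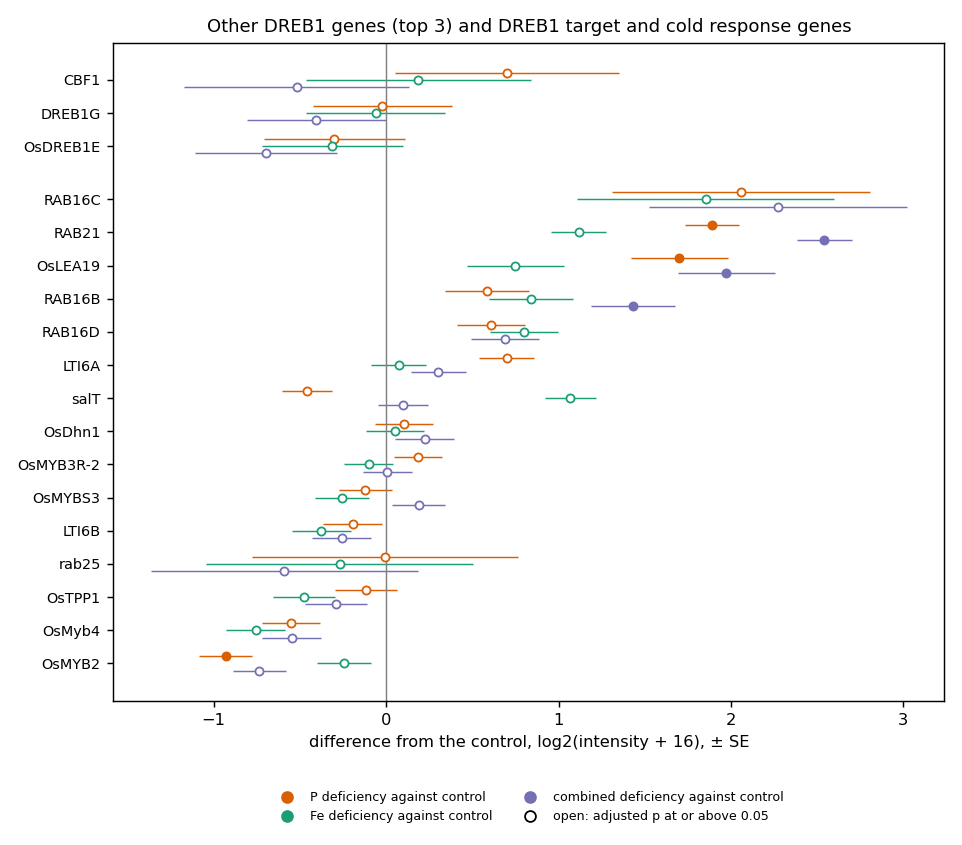
Differences from the control in log2(intensity + 16), with SE, for the 3 further DREB1 genes (top) and the 15 DREB1 target and cold response genes, 1 probe set per gene; filled points passed at adjusted p under 0.05. RAB21 rose by 1.89 and 2.54 in P and combined deficiency, OsMYB2 fell by 0.93 in P deficiency, and none of the DREB1 genes passed.

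Regulators placed upstream of DREB1 genes in rice or Arabidopsis were read as well, as far as their names could be matched. The names sought included ICE, HOS1 and CAMTA, which matched no gene, so those regulators were not read. The genes found were OsMPK3, MPK3 (LOC4328297), MPK6, PhyB, SIZ1, SIZ2 and OsCDPK13. Of 7 measured genes 1 fell in P deficiency and 0 passed in Fe or in combined deficiency, where 8.28%, 0.124% and 3.85% of all probe sets passed. At an unadjusted limma p under 0.05 there were 3, 0 and 1, against 23.4%, 8.33% and 19.8% of all probe sets. Their median differences were -0.23, -0.01 and -0.11. The one that fell was OsMPK3 (LOC4332475), a mitogen-activated protein kinase of stress signalling, with 1712 and 1481 in the control and 950 and 795 in P deficiency (-0.86, adjusted p = 0.0335). With 1 array left out its difference in P deficiency was -0.99 to -0.74, and the call did not hold. The share of all probe sets passing in such fits was not counted. OsMPK3 had 1486 and 1529 in Fe deficiency, within the range of the control arrays, and 1057 and 993 in the combined deficiency. The part of OsMPK3 in the DREB1 levels was not tested.

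Clock genes were read because the clock gates DREB1 genes and the time of harvest is not given. Of 7 measured clock genes 0 passed in each deficiency, against 8.28%, 0.124% and 3.85% of all probe sets. At an unadjusted limma p under 0.05 there were 1, 0 and 1, against 23.4%, 8.33% and 19.8%. Their median differences were -0.04, -0.01 and -0.19, and single genes ranged from -0.50 to 0.43. The brightest, GI (LOC4325329), differed by -0.27, -0.23 and -0.29. The part of the time of harvest in the DREB1 levels was not tested.

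Genes of families with members in early responses to touch and wounding were lower in part. The list holds CML calmodulin-like calcium sensors, JAZ repressors of jasmonate signalling, other TIFY genes, WRKY factors and ZFP zinc finger genes. It was drawn by these names, and whether each gene responds to touch or wounding was not tested. Of 50 measured genes 9 fell and 1 rose in P deficiency, where 4.05% of all probe sets fell and 4.23% rose. In Fe deficiency 1 fell and 0 rose, where 0.0192% and 0.105% of all probe sets did, with 9 at an unadjusted limma p under 0.05, as had 8.33% of all probe sets. In the combined deficiency 7 fell and 1 rose, where 1.78% and 2.07% of all probe sets did. Their median differences were -0.35, -0.12 and -0.24.

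CML15 (LOC4338633) was the only one of the 50 to pass in all 3 deficiencies, and it was also the one that fell in Fe deficiency. It had 1299 and 1525 in the control, 678 and 717 without P, 396 and 348 without Fe, and 662 and 653 without both. The differences were -0.998, -1.88 and -1.08 (limma adjusted p = 0.0205, 0.0294 and 0.0289). OsJAZ10 (LOC4331834) had 3321 and 3342 in the control, 1212 and 1297 without P, 1785 and 1756 without Fe, and 1342 and 1318 without both. It fell by 1.40 in P deficiency and by 1.31 in the combined deficiency (adjusted p = 0.00826 and 0.0165), and its difference in Fe deficiency was -0.91 (adjusted p = 0.101).

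CML31 (-1.60 in P and -1.18 in combined deficiency), CML16 (-0.78 and -1.15), OsWRKY71 (-1.97 and -1.35) and OsJAZ13 (-1.66 and -1.54) also fell in both of these. OsJAZ11 (LOC4331833, -0.83), OsJAZ7 (-1.25) and OsWRKY51 (-1.18) fell in P deficiency, and OsJAZ3 (LOC4331832, -1.60) fell in the combined deficiency. CML17 (LOC9272185) rose by 2.40 in P deficiency and by 1.72 in the combined deficiency. With 1 array left out fewer of the 50 genes passed in each deficiency, and the share of all probe sets passing in such fits was not counted. The part of handling or wounding in the DREB1 levels was not tested.

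The named genes most like the DREB1 pair were found by Pearson correlation with the mean log2 value of both probe sets over the 8 arrays. The candidates were 1349 probe sets of named genes with a range of at least 1 on the log2 scale. The 8 arrays fall into control and deficient arrays, so the measure mostly finds genes that differ between these, and it carries no p. The 6 highest were OsJAZ4 (LOC4347000, r = 0.978), the protein phosphatase gene OsPP2C32 (LOC4332509, 0.971), EL2 (LOC4331332, 0.955), which encodes an inhibitor of cyclin-dependent kinases, OsSAP17 (LOC4346945, 0.947), of the stress-associated zinc finger proteins, OsJAZ10 (0.940) and ZFP33 (LOC4342503, 0.937).

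OsSAP17 showed the largest fall of the 6 on the log2 scale, with a control mean of 711 ± 106 and means of 225 ± 40.6, 232 ± 36.3 and 235 ± 56.7 without P, without Fe and without both. Like OsDREB1B.1 it had means in the deficient groups that differed by less than the spread between arrays. EL2 went from 574 ± 73.1 to 262 ± 19.2, 323 ± 77.6 and 229 ± 31.6, with its lowest mean in the combined deficiency, as CBF3 had. OsJAZ4 stood at 669 ± 56.4, 363 ± 19.3, 396 ± 1.00 and 361 ± 31.3, but its brighter probe set moved little, at 2079 ± 266, 1786 ± 295, 2105 ± 23.7 and 1697 ± 43.8. ZFP33 also rests on the dimmer of its probe sets. Of the 1349 probe sets 11 had r above 0.9. Among all 35427 probe sets with such a range, named or not and with the DREB1 pair included, 196 did.

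At the other end stood MT2B (LOC4326409, r = -0.988), a metallothionein gene, with a control mean of 4399.8 ± 70.2 and means of 11476 ± 722, 11425 ± 1526 and 15514 ± 292 without P, without Fe and without both. OsC3H10 (LOC4327885, r = -0.986), of the zinc finger genes, went from 9.03 ± 0.103 to 61.4, 74.5 and 77.4, and OsSWEET4 (LOC4329093, r = -0.960), of the sugar transporters, from 3448 ± 154 to 6529, 5729 and 6792.

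**Figure D4:**
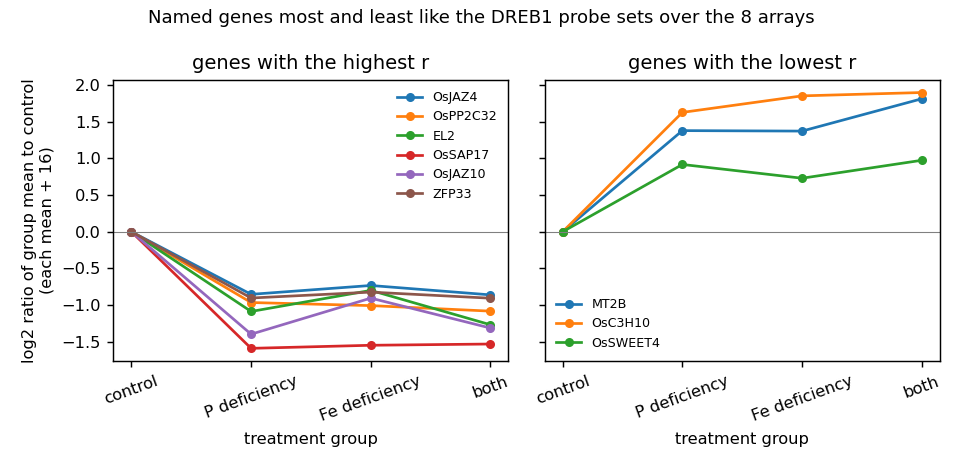
Log2 ratio of each group mean to the control mean (16 added to each) for the 6 named genes with the highest and the 3 with the lowest correlation with the DREB1 pair over 8 arrays. The genes at left are all lower in each deficient group, and MT2B, OsC3H10 and OsSWEET4 at right are all higher.

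Other features of the arrays were set beside these results. Array medians before normalization were 48.0 and 54.4 in the control, 62.2 and 62.9 without P, 48.1 and 53.3 without Fe, and 63.9 and 68.9 without both. The summed level of 4 shoot marker genes, which would report leaf tissue, was 52580 to 56238 in the control and 46574 to 50210 in Fe deficiency. It was 32469 to 33586 in P deficiency and 35204 to 37188 in the combined deficiency, with none of the 4 at 0. Of these 4 genes 3 fell in P deficiency, 0 in Fe deficiency (2 at an unadjusted limma p under 0.05) and 3 in the combined deficiency. Over all probe sets 4.05%, 0.0192% and 1.78% fell, and 8.33% had an unadjusted p under 0.05 in Fe deficiency. In P and in combined deficiency the count depended on which array was left out, and the share of all probe sets passing in such fits was not counted. The 3 were LIR1, rca and OsrbcS, a light-regulated gene and the genes of Rubisco activase and the Rubisco small subunit.

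Of 9 root marker genes 4 rose and 2 fell in P deficiency, 3 rose in Fe deficiency, and 4 rose and 1 fell in the combined deficiency. Over all probe sets 4.23% rose and 4.05% fell in P deficiency. The shares were 0.105% and 0.0192% in Fe deficiency, and 2.07% and 1.78% in the combined deficiency. The silicon transporter genes Lsi1 (-0.67) and Lsi2 (-1.31) fell in P deficiency, and Lsi2 (-0.94) fell in the combined deficiency. The nicotianamine synthase genes OsNAS1 (0.85, 1.63 and 1.59) and OsNAS2 (0.88, 2.01 and 1.71) rose in all 3 deficiencies. OsCASP1, of the Casparian strip (1.77 and 1.25), and the auxin carrier gene OsPIN2 (1.98 and 1.29) rose in P and combined deficiency, and YSL15, an iron-chelate transporter gene, rose in Fe deficiency (1.98). OsSHR1 and OsSCR1 did not pass, and OsSCR1 was the dimmest, with group means of 101 to 114. The summed level of the 9 genes was 46760 to 50722 in the control, 45417 to 46914 without P, 75647 to 75948 without Fe and 60659 to 62287 without both. Into this sum OsNAS1 and OsNAS2 entered with means of 8097 and 3272 in the control and 25049 and 13149 without Fe. The sum is therefore not a measure of root content alone. The part of the shoot and root markers in the DREB1 levels was not tested. The log2 excess of the 3' over the 5' probe set, a sign of RNA degradation, was averaged over 7 rice control transcript pairs. It was 3.15 and 1.64 on the control arrays and 1.20 to 2.60 on the others. Single pairs varied, with 2.85 and -2.89 for ef1a on the control arrays. Both control arrays exceeded all others in an actin pair (5.50 and 5.11, against 4.38 to 4.86). They did so in a gapdh pair too (3.66 and 3.56, against 2.67 to 3.14), and in none of the remaining pairs. On the control arrays the normalized levels were 786 and 784 for OsDREB1B.1 and 695 and 591 for CBF3 (replicates 1 and 2). The part of RNA quality in the DREB1 levels was not tested. In whole roots, fewer cells that carry a transcript and less transcript per cell cannot be told apart.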

How the data were processed

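Probe set intensities of 8 Affymetrix rice arrays were used as deposited by the authors, on a linear scale. Per the submitters' processing notes they were made in Affymetrix Expression Console 1.1, by a summarization method not given in the sources used here. After trimming 2% at each end each deposited array has the same mean of 500.07, as from scaling. Groups and replicates follow the sample titles. Control probe sets (187 of 57381) were left out. Intensities were quantile-normalized, converted to log2(intensity + 16), which understates changes of dim genes, and fitted with 1 mean per group in limma 3.58.1 under R 4.3.3 (4 residual and 1.74 prior degrees of freedom). P-values were adjusted by Benjamini-Hochberg over 57194 probe sets, threshold 0.05. The number of arrays limits the precision. The method was tested on simulated data.

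Probe sets were named through the platform table and a RefSeq gene table. 22436 matched 1 gene, 95 several and 34663 none. Lists were drawn by gene name, and the probe set of highest mean stood for its gene in counts. Genes named were both members, every list or marker gene that passed in a deficiency against the control, or the brightest of a list with none, and the 6 most and 3 least like the members. The genes and lists were chosen with earlier results of these data known. Plants were Indica while the tables follow japonica, and a mismatch can lower a signal. Sequences were not used here. Alternatives changed the added constant, normalization, filter, arrays, prior and replicate block.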

Additional observations from a re-analysis of the deposited data

How the results depend on the processing

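The differences of both genes from the control kept their direction under all 16 alternatives. With 64 added before the logarithm, which damps changes, the differences were -2.08, -2.21 and -2.09 for OsDREB1B.1 in P, Fe and combined deficiency. For CBF3 they were -1.62 and -2.22 in P and combined deficiency. With 1 array left out OsDREB1B.1 ranged from -2.69 to -2.13, -2.74 to -2.37 and -2.65 to -2.19, and CBF3 from -1.98 to -1.73, -1.75 to -1.52 and -2.95 to -2.44. CBF3 in the combined against Fe deficiency passed with 64 added (-0.77, limma adjusted p = 0.0378), with dim probe sets left out (-1.03, adjusted p = 0.0194) and with an intensity trend in the prior (-1.03, adjusted p = 0.021). With 1 array left out it was -1.29 to -0.78, against P deficiency -1.08 to -0.57, and between the single deficiencies -0.33 to -0.10. OsDREB1B.1 in the combined against P deficiency turned to 0.0461 with the deposited scaling alone. With 1 array left out its differences were -0.29 to 0.27 in the combined against P deficiency, -0.0730 to 0.40 in the combined against Fe deficiency and -0.11 to 0.45 in P against Fe deficiency.

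Counts of list genes moved more, and the cause was not tested except where fewer arrays or probe sets enter by construction. The share of all probe sets passing was not counted for the alternatives of this paragraph. A general rise or fall in calls therefore cannot be told apart from one in the lists. For the 15 target and cold response genes in P, Fe and combined deficiency (3, 0 and 3), the counts were 7, 2 and 6 with dim probe sets left out, 8, 3 and 7 with a trend, 2 in Fe deficiency with 64 added and 1 in the combined deficiency with 1 added. They were 0 in P and in combined deficiency on the 4 arrays of the groups compared, and 0 to 2, 0 to 0 and 0 to 1 with 1 array left out. For the 7 upstream regulators in P deficiency (1) the counts were 0 with 1 added, 2 with 64 added, 3 with dim probe sets left out, 3 with a trend, 0 on 4 arrays and 0 to 0 with 1 array left out. In the combined deficiency (0) they were 1 with 64 added, 1 with dim probe sets left out and 2 with a trend. For the 7 clock genes in P deficiency (0) the counts were 1 with arrays centred on their medians, 1 with dim probe sets left out and 1 with a trend, and in the combined deficiency (0) the count was 2 with a trend. The 3 further DREB1 genes gave 0 throughout. The touch and wound counts in P, Fe and combined deficiency (10, 1 and 8) were 18, 4 and 17 with dim probe sets left out and 20, 5 and 19 with a trend, 3 in Fe deficiency with 64 added, 0 and 4 in Fe and combined deficiency with 1 added, and 0 in each on 4 arrays. The shoot marker counts (3, 0 and 3) were 0 in P and combined deficiency on 4 arrays, and 1 in Fe deficiency with a trend. Of 32 differences of list genes that passed, none reversed, 0 passed on 4 arrays and 7 to 12 passed with 1 array left out.

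The replicate numbers are shared across groups, and the labels do not say whether they pair the arrays. The differences between replicates 1 and 2 correlated between groups at -0.02 to 0.02 across probe sets. A value over all probe sets cannot decide this, as pairing might touch only some genes. With the replicate block, target and cold response genes passing were 1 in P and 1 in combined deficiency, upstream regulators 0, touch and wound genes 6, 0 and 0, and shoot markers 0 in the combined deficiency. All calls in P, Fe and combined deficiency went from 4736, 71 and 2200 to 2385, 14 and 107. The differences of both DREB1 genes were the same with and without the block, as they must be where each group holds both replicate numbers.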
